A study of Mus musculus with 12 samples.

Results

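The genes described here drive and steer transport along microtubules: the cytoplasmic dynein heavy chain Dync1h1, the dynactin subunit Dctn1, the dynein regulators Pafah1b1, Nde1 and Ndel1, the adaptor Bicd2, the kinesin-1 heavy chains Kif5a, Kif5b and Kif5c, and the kinesin-3 motor Kif1a. They were taken by Ensembl identifier from a table of ribosome footprint counts for 10481 mouse genes, in which 9 of the 10 had a row. Bicd2 (ENSMUSG00000037933) had none and was not analysed here. Footprints are the mRNA fragments that ribosomes protect from nuclease, so their number per gene depends on both the amount of an mRNA and its load of ribosomes, and no RNA libraries were analysed here to separate these.

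Brain and spinal cord came from embryos of the Taiwanese model of spinal muscular atrophy (SMA) at embryonic day 14.5 (E14.5). Control embryos were Smn+/-; SMN2tg/0 and SMA embryos were Smn-/-; SMN2tg/0. All of them therefore carried the human SMN2 transgene, and the controls had a single working copy of mouse Smn and were not wild type. There were 3 libraries in each of the 4 groups, made from whole tissue. In whole tissue, fewer cells of a type and less RNA per cell cannot be told apart. There were 3 embryos of each genotype, so the libraries of a group stand for separate embryos. The labels do not say which brain and spinal cord libraries came from the same embryo.

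Dynein carries cargo toward the minus ends of microtubules, which in axons lie toward the cell body, and most kinesins carry cargo the other way. Dynactin links dynein to cargo and lets it take long runs. Pafah1b1 encodes LIS1, which binds the dynein motor together with the paralogous proteins NDE1 and NDEL1. In the developing brain LIS1 and NDE1 act in the divisions of neural progenitors, and LIS1 and NDEL1 in the migration of neurons. Variants of DYNC1H1 and BICD2 cause forms of spinal muscular atrophy with predominance in the legs, and variants of KIF5A cause hereditary spastic paraplegia. The comparison of SMA with control embryos asks whether ribosome occupancy of these transcripts was altered before birth, and the comparison of the tissues shows how their levels differ between brain and spinal cord.

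Library totals were 4207100 to 9117017 counts in control brain, 3683842 to 5406430 in SMA brain, 10315064 to 12793955 in control spinal cord and 5162190 to 8027322 in SMA spinal cord. Levels are given as CPM, counts scaled to a common library size after normalization of the 12 libraries together. The tissue labels were checked with markers. The summed level of Hoxc6 and Hoxc8, which mark the spinal cord, was 131 to 211 CPM in spinal cord and at most 1.46 CPM in brain. By library it was 131, 211 and 186 CPM in control spinal cord and 150, 192 and 169 CPM in SMA, lowest in library 1 of each. A high sum does not show that a spinal cord library was free of brain tissue, which was not tested. Within control spinal cord, the chi-square statistic per gene between libraries was 23.4 and 23.3 for the pairs with library 1 and 9.96 for the other pair. Within SMA spinal cord it was 18.003 and 14.33 for the pairs with library 1 and 5.07 for the other. Within control brain it was 10.4 and 8.20 for the pairs with library 1 and 3.93 for the other. This statistic was computed on raw counts and can rise with depth, and library 1 had the highest total in each of these groups. The mitotic kinesin Kif11 was at 34.6 CPM in control spinal cord library 1 and at 5.44 to 10.1 CPM in the other 5 spinal cord libraries. By Kif11, control spinal cord library 1 stood apart from its group, and results that rest on it are given with and without it. Smn could not be followed by name in the tables used here, so the genotype labels were not checked with it.

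All 9 genes were well covered. The lowest count of any of them in any library was 124, for Nde1 in SMA spinal cord, and the highest was 11536, for Kif1a in control spinal cord. Per kilobase of gene length, Kif1a, which carries synaptic vesicle precursors and dense core vesicles, had the highest level in every group, with means of 91.2 ± 2.89 CPM per kb in control brain and 103 ± 10.4 CPM per kb in control spinal cord (SD, n = 3). Dctn1, which encodes the dynactin subunit that binds microtubules, followed at 77.3 ± 3.01 and 70.6 ± 9.58 CPM per kb. Kif5c came next at 65.3 ± 4.01 and 55.4 ± 4.62 CPM per kb, and then Pafah1b1 at 32.4 ± 0.33 and 35.6 ± 1.83 CPM per kb (all SD, n = 3). Neighbours in this order differed beyond their spread down to Pafah1b1 in both control groups and in SMA spinal cord. In SMA brain the ranges of Dctn1 and Kif5c overlapped.

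The rest of the order differed between the tissues. Nde1 followed Pafah1b1 in brain, at 30.0 ± 3.78 CPM per kb in control and 31.6 ± 5.03 CPM per kb in SMA, and its range overlapped that of Pafah1b1 in both. It was last in spinal cord, at 10.4 ± 1.73 CPM per kb in control and 7.03 ± 0.82 CPM per kb in SMA (SD, n = 3). Kif5b, Dync1h1 and Ndel1 lay between 17.5 and 24.9 CPM per kb in all group means. In spinal cord the ranges of Kif5b and Dync1h1 overlapped in control, and the ranges of Dync1h1 and Ndel1 overlapped in both genotypes. Kif5a, a heavy chain of neurons, was the lowest of the 9 in brain at 11.9 ± 0.77 CPM per kb in control and 11.4 ± 0.31 CPM per kb in SMA. These levels divide by the length of all exons, so a gene with much noncoding exon sequence is placed lower than its coding sequence alone would place it.

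**Figure D1:**
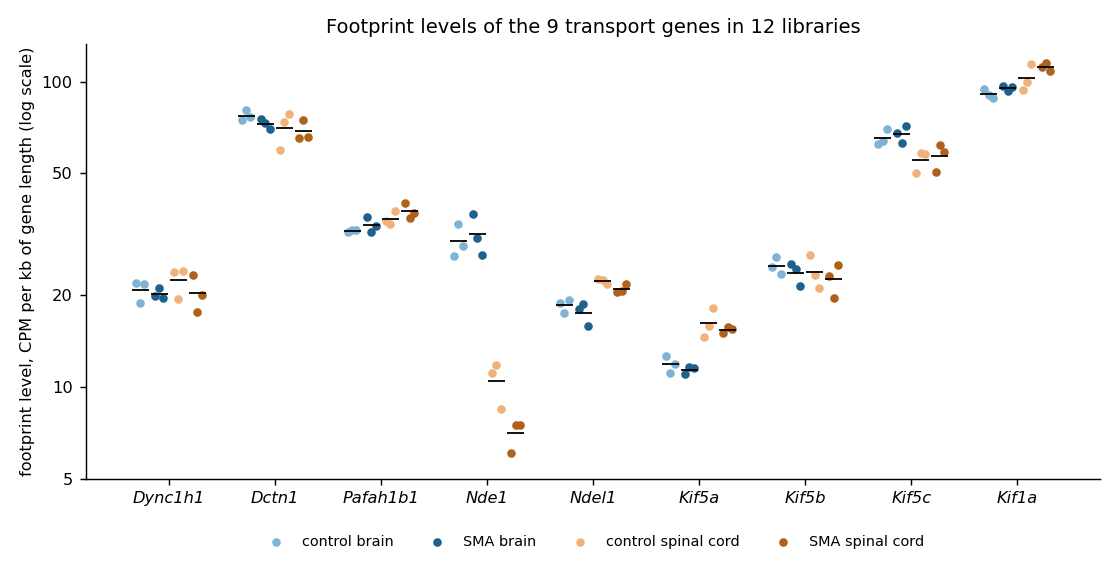
Footprint level of each of the 9 transport genes, in CPM per kb of gene length on a log axis, in each library (points) with the group mean (line, n = 3). Nde1 lies near 30 CPM per kb in brain and at 6.08 to 11.8 CPM per kb in spinal cord, while the highest library of each other gene is 1.25 to 1.64 times its lowest.

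In brain, none of the 9 genes passed the thresholds of the study's pathway analysis, which ask for a log2 fold change of 0.3 or more in size and an unadjusted p below 0.05, in SMA against control. Of all 10481 genes, 3.76% passed them. Log2 fold changes of the 9 lay between -0.07 and 0.09, with 4 above 0 and 5 below, and all 9 had an unadjusted p above 0.05 in edgeR's quasi-likelihood test. In DESeq2, too, 0 of the 9 passed both thresholds. No gene of the 10481 had an edgeR adjusted p below 0.05, in brain or in spinal cord, while 529 and 733 had an unadjusted p below it. The 95% intervals of the log2 fold changes reached from -0.32 at the lowest bound to 0.39 at the highest. For none of the 9 did the 3 SMA libraries lie wholly above or below the 3 control libraries, against 11.3% of all genes.

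In spinal cord, 1 of the 9 genes passed the thresholds, Nde1, which was lower in SMA, against 4.19% of all genes and 2.14% counting lower genes alone. The other 8 had log2 fold changes between -0.15 and 0.11 and adjusted p of 0.704 or more in edgeR's quasi-likelihood test. Their 95% intervals reached from -0.46 for Dync1h1 to 0.29 for Kif1a. Groups did not overlap for Nde1 alone of the 9, against 14.4% of all genes.

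Dync1h1 (ENSMUSG00000018707; chromosome 12, 110601395 to 110666944, GRCm38.p6), the motor subunit of dynein, shows the spread behind these intervals. It was at 372, 304 and 374 CPM in the control spinal cord libraries and at 364, 275 and 312 CPM in the SMA libraries. Libraries of the groups were interleaved, and the log2 fold change was -0.15 (SE 0.13). In brain it was at 343, 294 and 339 CPM in control and 309, 329 and 306 CPM in SMA, again with overlap. Dctn1 (ENSMUSG00000031865; chromosome 6, 83165909 to 83200118) had a mean of 503 ± 19.6 CPM in control brain and 473 ± 17.1 CPM in SMA brain, and of 460 ± 62.3 and 447 ± 35.8 CPM in spinal cord (SD, n = 3). Its lowest value, 390 CPM, was in control spinal cord library 1.

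Pafah1b1 (ENSMUSG00000020745; chromosome 11, 74673949 to 74724384) was the steadiest of the 9. Its highest library was 1.25 times its lowest over all 12, and in control brain the 3 libraries were at 308, 314 and 314 CPM. In SMA it was at 346, 309 and 323 CPM in brain and at 384, 344 and 358 CPM in spinal cord, where control was at 335, 329 and 362 CPM. The ranges of SMA and control overlapped in both tissues, with log2 fold changes of 0.08 (SE 0.09) and 0.07 (SE 0.07).

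**Figure D2:**
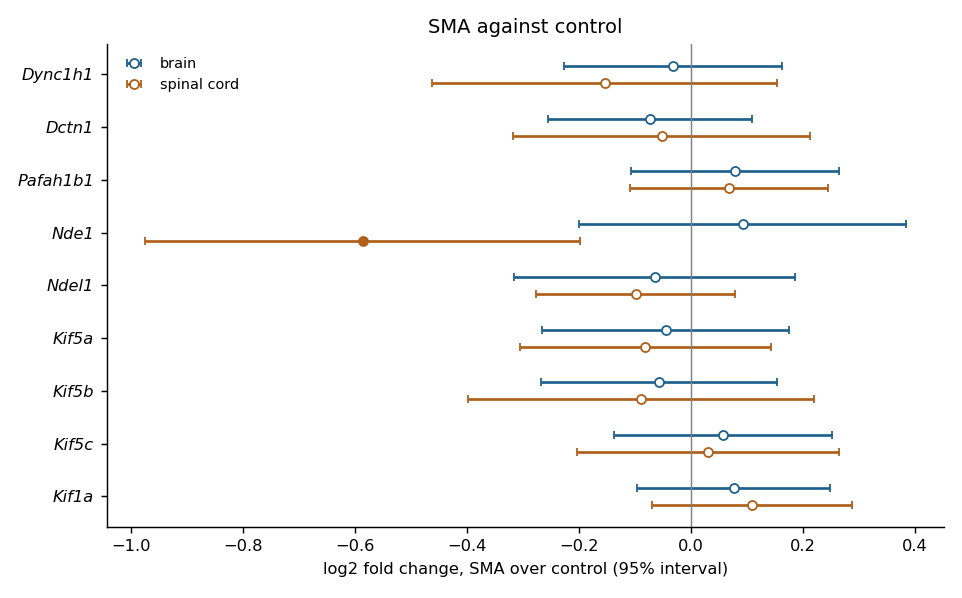
Log2 fold change of each transport gene in SMA against control with its 95% interval (edgeR, 3 libraries against 3), in brain (blue) and spinal cord (brown). Filled points pass both an absolute log2 fold change of 0.3 and an unadjusted p of 0.05, as Nde1 at -0.59 in spinal cord did, and intervals of the other 17 values include 0.

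Nde1 (ENSMUSG00000022678) lies on the plus strand of chromosome 16 (14163275 to 14192928, GRCm38.p6) and its paralog Ndel1 (ENSMUSG00000018736) on the minus strand of chromosome 11 (68821434 to 68853146). Nde1 lay lower in spinal cord than in brain, and Ndel1 lay higher without passing adjustment. For these paralogs the 250 bases before a transcription start of each gene are shown, from RefSeq in GRCm38.p6, 5′ to 3′ along the gene. They are chr16:14163025-14163274 for Nde1 and chr11:68853136-68853385 for Ndel1, whose start in the promoter table lies a few bases inside the outer end of the gene given above. Capitals mark matches to CCAAT on either strand (ATTGG on the other) or to CACGTG, which reads the same on both strands.
Nde1: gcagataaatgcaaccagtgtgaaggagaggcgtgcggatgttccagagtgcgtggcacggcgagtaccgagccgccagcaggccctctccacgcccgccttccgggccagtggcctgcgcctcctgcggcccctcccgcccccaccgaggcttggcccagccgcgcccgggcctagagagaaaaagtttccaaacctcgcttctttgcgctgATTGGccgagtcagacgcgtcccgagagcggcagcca
Ndel1: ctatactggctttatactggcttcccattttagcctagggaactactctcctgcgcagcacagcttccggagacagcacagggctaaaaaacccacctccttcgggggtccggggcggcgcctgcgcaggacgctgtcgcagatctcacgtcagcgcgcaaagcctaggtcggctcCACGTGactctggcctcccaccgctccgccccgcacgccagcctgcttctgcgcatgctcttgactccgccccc
The Nde1 window held 1 match to CCAAT, beginning 37 bases before the start and read as ATTGG, and none to CACGTG. Ndel1 had 1 match to CACGTG, 74 bases before the start, and none to CCAAT. Among 32851 RefSeq promoter windows of the same length, 33.8% held CCAAT and 6.02% held CACGTG on either strand. Another motif, TTTGAA, searched on both strands, was in neither window and in 15.99% of all. The motifs were chosen after these sequences had been read, and each window held a single match, so none overlapped. Footprint counts carry no measurement of these windows.

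In spinal cord, Nde1 had 468, 402 and 287 footprints in the control libraries, or 35.5, 37.7 and 27.2 CPM. In SMA it had 158, 124 and 147 footprints, or 19.5, 24.1 and 24.1 CPM. All 3 SMA libraries lay below all 3 control libraries. The mean was 33.5 ± 5.54 CPM in control and 22.5 ± 2.64 CPM in SMA (SD, n = 3), a log2 fold change of -0.59 (SE 0.16, 95% interval -0.97 to -0.20). The unadjusted p of edgeR's quasi-likelihood test was 0.0091, which ranked Nde1 at position 103 of 10481, and the adjusted p was 0.684, so it did not pass correction over all genes. The exact permutation test gave p = 0.1, the smallest possible with 3 libraries against 3. Over 15 other settings the log2 fold change lay between -0.72 and -0.44 and stayed past the pathway thresholds in each, with adjusted p of 0.311 to 0.979 where one was given.

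Without control spinal cord library 1 the log2 fold change was -0.54, with an edgeR adjusted p of 0.979 and an unadjusted p of 0.0274. Without it and SMA spinal cord library 1 together it was -0.44, with an edgeR adjusted p of 0.511 and an unadjusted p of 0.0441. Dividing progenitors, in which Nde1 acts, were followed by 5 of the 12 markers listed for them, Top2a, Nes, Fabp7, Cdk1 and Gmnn. Their summed level was 522 to 615 CPM in control spinal cord and 485 to 582 CPM in SMA, so the groups overlapped. The median log2 fold change of the 5 was -0.58, beside -0.01 over all genes, with values below 0 for 4 of them. By the pathway thresholds applied to Nde1, Nes (-0.41, edgeR adjusted p = 0.684) and Gmnn (-0.76, adjusted p = 0.684) passed as lower in SMA, at unadjusted p of 0.0066 and 0.0155. Without control spinal cord library 1 the values were -0.40 for Nes, -0.56 for Gmnn, -0.21 for Cdk1, -0.06 for Top2a and 0.19 for Fabp7, and Nes and Gmnn still passed. Their part in the Nde1 result was not tested.

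In brain, Nde1 showed no such order. It was at 85.9, 109 and 93.0 CPM in control and 118, 98.5 and 86.5 CPM in SMA, with each group holding a library near 86 CPM. The log2 fold change was 0.09 (SE 0.14). Of the progenitor markers, Nes (-0.33) and Gmnn (-0.36) passed the pathway thresholds as lower in SMA brain too. Their unadjusted p in edgeR's quasi-likelihood test was 0.0093 and 0.0161, with an adjusted p of 0.902 for each. Top2a was at -0.19, Cdk1 at -0.17 and Fabp7 at 0.17, and these did not pass. The part of these markers in the brain value of Nde1 was not tested. The difference between the SMA effects of the tissues was tested by itself as an interaction over all 12 libraries. For Nde1 it was -0.65 (SE 0.22) on the log2 scale, spinal cord minus brain, with an unadjusted p of 0.0126 in edgeR and an adjusted p of 1. In that test 0% of the 10481 genes passed adjustment at 0.05, in edgeR or in DESeq2, and 249 had an unadjusted p below 0.05 in edgeR. The interaction of the other 8 transport genes lay between -0.09 and 0.06.

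Ndel1 did not pass the pathway thresholds that its paralog passed in spinal cord. It was at 73.1, 73.1 and 70.4 CPM in control spinal cord and 66.3, 67.0 and 70.9 CPM in SMA, where the highest SMA library exceeded the lowest control library. The log2 fold change was -0.10 (SE 0.08), and its 95% interval, -0.28 to 0.08, overlapped that of Nde1. As a share of the summed level of Nde1 and Ndel1 per kb, Nde1 made up 33.0%, 34.4% and 28.2% in control spinal cord and 23.0%, 26.7% and 25.6% in SMA. The SMA libraries were all lower, a mean difference of -6.74 percentage points (exact permutation p = 0.1, the smallest possible). In brain the share was 61.6% ± 3.95 in control and 64.2% ± 2.71 in SMA (SD, n = 3), with overlap.

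**Figure D3:**
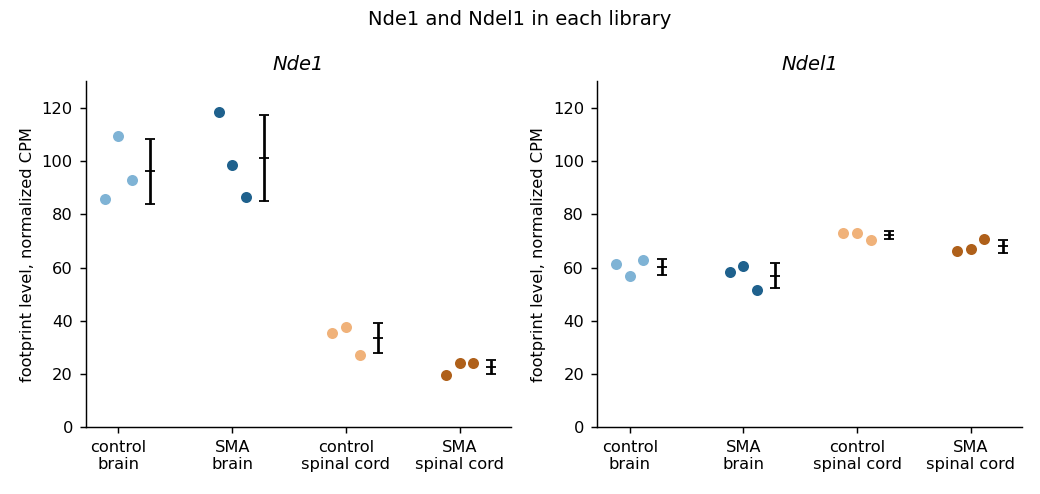
Normalized footprint level (CPM) of Nde1 (left) and Ndel1 (right) in each library (points), with mean and SD beside each group (n = 3). The SMA spinal cord libraries of Nde1 sit at 19.5 to 24.1 CPM, below control spinal cord at 27.2 to 37.7 CPM, while all Ndel1 libraries lie between 51.6 and 73.1 CPM.

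Between the tissues, 2 of the 9 genes differed in control embryos at an adjusted p below 0.05, Nde1 and Kif5a, where 38.4% of all genes did. In SMA embryos 3 of the 9 differed, Nde1, Kif5a and Kif1a, where 36.7% of all genes did. With SMA libraries paired by number, Nde1 and Kif5a passed and Kif1a did not, with 3745 of all genes called beside 3849 without pairs. The share of transport genes called was therefore below or near that of all genes. The 3 libraries of each tissue did not overlap for 5 of the 9 genes in either genotype, against 54% of all genes in control and 51.8% in SMA.

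Nde1 was lower in spinal cord in every library. The highest spinal cord library had 37.7 CPM and the lowest brain library 85.9 CPM. The log2 fold change of spinal cord against brain was -1.51 (SE 0.16) in control, with an edgeR adjusted p of 0.000446, and -2.16 (SE 0.15) in SMA, with an adjusted p of 4.2e-05. That is a level 2.84-fold lower in control and 4.48-fold lower in SMA. Leaving out control spinal cord library 1 gave -1.55 in control. Its share of the summed level with Ndel1 differed by -29.8 percentage points between spinal cord and brain in control and by -39.04 points in SMA, without overlap (exact permutation p = 0.1 for each). The progenitor markers moved with it. Their sum was 934 to 1118 CPM in brain and 485 to 615 CPM in spinal cord, and the log2 values of all 5 were below 0, with medians of -1.21 in control and -1.83 in SMA. Nes, Cdk1 and Gmnn passed in both genotypes and Top2a in SMA, at an edgeR adjusted p below 0.05, and Fabp7 passed in neither. Without control spinal cord library 1, Top2a passed in control as well, at -2.39 where it had been -1.18, and Cdk1 was at -2.05, Gmnn at -1.65, Nes at -1.21 and Fabp7 at -0.22. Their part in the tissue difference of Nde1 was not tested.

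Ndel1 lay higher in spinal cord, with no overlap between tissues. Brain libraries reached from 51.6 to 62.7 CPM and spinal cord libraries from 66.3 to 73.1 CPM. The log2 fold changes of 0.27 (SE 0.09) in control and 0.26 (SE 0.10) in SMA had edgeR adjusted p of 0.0513 and 0.0703 and so did not pass. Pafah1b1, Dctn1, Dync1h1 and Kif5b also did not pass in either genotype, with log2 fold changes between -0.12 and 0.16. Without control spinal cord library 1 the control values were 0.16 for Pafah1b1, -0.014 for Dctn1, 0.069 for Dync1h1 and -0.16 for Kif5b, and none passed.

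**Figure D4:**
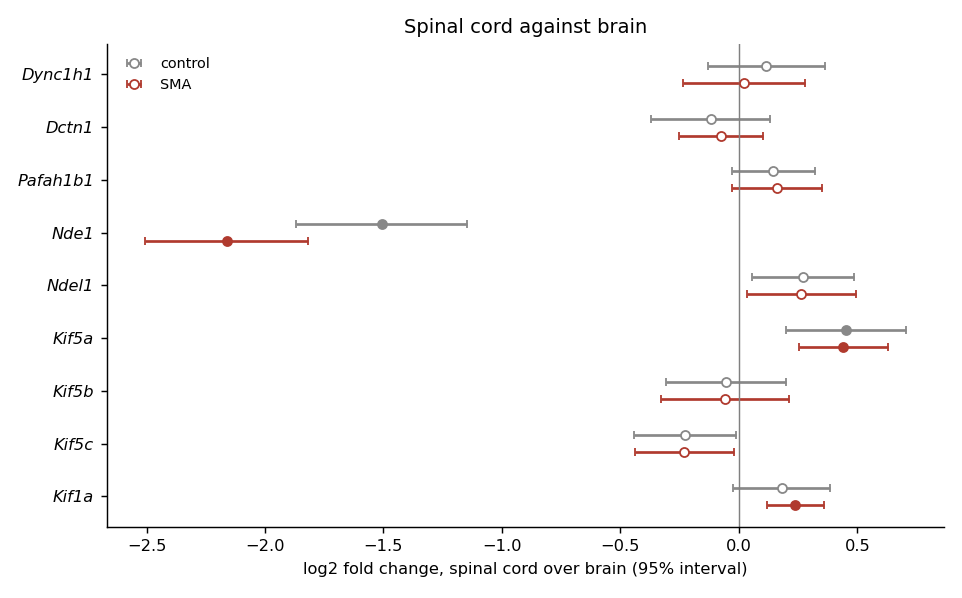
Log2 fold change of each transport gene in spinal cord against brain with its 95% interval (edgeR, 3 libraries against 3), in control (grey) and SMA (red) embryos. Filled points have an adjusted p below 0.05, and Nde1 at -1.51 and -2.16 lies apart from the other 8 genes, which stay between -0.23 and 0.45.

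Kif5a (ENSMUSG00000074657; chromosome 10, 127225695 to 127266348) was the heavy chain with a higher level in spinal cord. It was at 88.3, 77.5 and 82.9 CPM in control brain and at 102, 110 and 126 CPM in control spinal cord. SMA embryos had 77.1, 81.1 and 80.6 CPM in brain and 105, 109 and 108 CPM in spinal cord. Every spinal cord library exceeded every brain library, and within each tissue the genotypes overlapped. The log2 fold change of spinal cord against brain was 0.45 (SE 0.11, edgeR adjusted p = 0.0141) in control and 0.44 (SE 0.08, adjusted p = 0.0044) in SMA. Without control brain library 2 the control value was 0.41 with an adjusted p of 0.0561, the one of 14 other settings in which the call was lost, and the adjusted p of all 14 lay between 0.0025 and 0.0561. Without control spinal cord library 1 it was 0.52.

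Neuron markers differed among themselves between the tissues. The summed levels of the 5 followed of 12 listed, Map2, Elavl3, Nefl, Nefm and Mapt, overlapped, at 4658 to 5864 CPM in brain and 4340 to 6382 CPM in spinal cord. The neurofilament genes Nefl and Nefm, whose products fill large axons, were higher in spinal cord, with log2 fold changes of 1.95 and 1.90 in control. Elavl3, which encodes an RNA-binding protein of neurons, was lower at -0.35 (adjusted p = 0.0228 in edgeR). Map2 and Mapt were at -0.21 and -0.19 in control and did not pass. Their part in the Kif5a difference was not tested.

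Kif5c (ENSMUSG00000026764; chromosome 2, 49619286 to 49774778), the most abundant of the kinesin-1 heavy chains, lay lower in spinal cord. It was at 446 to 509 CPM in brain and 358 to 442 CPM in spinal cord, without overlap in either genotype. The log2 fold changes of -0.23 (SE 0.09) in control and -0.23 (SE 0.09) in SMA had edgeR adjusted p of 0.0863 and 0.0789 and did not pass. Without control spinal cord library 1 the control value was -0.16, with an edgeR adjusted p of 0.1997. Kif5b (ENSMUSG00000006740), the heavy chain made in most cell types, was at 171 to 212 CPM in brain and 156 to 215 CPM in spinal cord, so its tissue ranges overlapped fully.

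Shares within the kinesin-1 family followed from these levels. Of the summed level of the 3 heavy chains per kb, Kif5a made up 12.7%, 10.95% and 11.3% in control brain and 15.9%, 16.2% and 18.6% in control spinal cord. The share was 11.1% ± 0.59 in SMA brain and 16.2% ± 0.71 in SMA spinal cord (SD, n = 3). It was higher in spinal cord by 5.29 percentage points in control and 5.08 points in SMA, without overlap (exact permutation p = 0.1 for each, the smallest possible). Kif5c held the largest share, 64.0% ± 2.19 in control brain and 58.1% ± 2.97 in control spinal cord, and Kif5b made up 24.4% ± 2.01 and 25.0% ± 3.97 (SD, n = 3). In SMA against control the Kif5a share differed by -0.49 points in brain and -0.70 points in spinal cord, within the spread of the libraries (exact permutation p = 0.6 for each). The 3 genes are paralogs, and reads that matched up to 5 places were kept by the authors, so reads from identical stretches could be split between them.

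**Figure D5:**
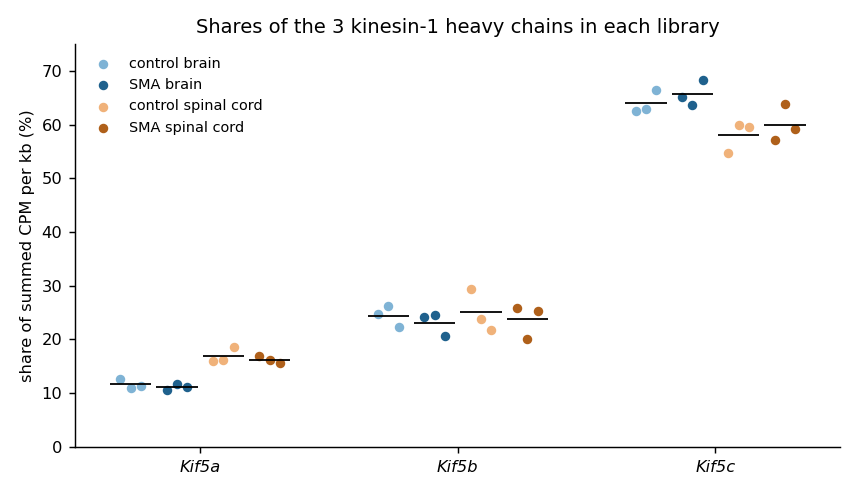
Share of each kinesin-1 heavy chain in the summed level per kb of the 3 (percent), in each library (points) with the group mean (line, n = 3). Kif5a libraries lie at 10.6% to 12.7% in brain and at 15.6% to 18.6% in spinal cord in both genotypes together.

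Kif1a (ENSMUSG00000014602; chromosome 1, 93015455 to 93102039) passed in SMA embryos alone, but the tissue difference was not shown to depend on genotype. Its levels were 901, 870 and 893 CPM in SMA brain and 1043, 1070 and 1011 CPM in SMA spinal cord, without overlap, a log2 fold change of 0.24 (SE 0.05, edgeR adjusted p = 0.0096). In control it was at 880, 846 and 827 CPM in brain and 876, 933 and 1065 CPM in spinal cord, where library 1 overlapped brain, a log2 fold change of 0.18 (SE 0.09, adjusted p = 0.14). Without control spinal cord library 1 the control value was 0.24, with an edgeR adjusted p of 0.0667. The interaction was 0.06 (SE 0.10). With library numbers as pairs, the SMA difference was 0.24 with an adjusted p of 0.0600, and with upper-quartile factors it was 0.15 with 0.0774. After removal of a smooth trend on counts per base it was 0.42 in SMA and 0.44 in control, and over all 14 other settings the adjusted p was 0.00093 to 0.0774 in SMA.

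The wider transport machinery was read from lists of 78 genes, of which 14 could be followed by name. None of the 14 passed the pathway thresholds in SMA against control, in brain, where 3.76% of all genes did, or in spinal cord, where 4.19% did. Their median log2 fold changes were 0.03 in brain and 0.07 in spinal cord, beside 0.00 and -0.01 over all genes. In spinal cord Hap1 (0.25), Kif21a (-0.23) and Dynll1 (0.28) missed the size threshold alone. Their unadjusted p in edgeR's quasi-likelihood test was 0.0145, 0.0248 and 0.0335, where 6.99% of all genes were below 0.05. The adjusted p was 0.684 for each. Without control spinal cord library 1 Dynll1 was at 0.26, with an unadjusted p of 0.0780 in edgeR. Of 13 dynein subunits 3 were followed, the light chains Dynlt1c, Dynll1 and Dynll2. Of 11 dynactin subunits 2 were followed, Actr10 and Capza2, and of 17 adaptors and regulators 1, Hap1, which links huntingtin to motors. The kinesin-1 light chains Klc1 and Klc4 and the kinesins Kif3a, Kif3c, Kif21a and Kif2a were followed from lists of 11 and 14 genes, and the mitotic kinesins Kif11 and Kif20a from a list of 12.

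Between the tissues, 3 of the 14 were called in control and 6 in SMA at an adjusted p below 0.05 in edgeR, where 38.4% and 36.7% of all genes were. Dynll1, the light chain LC8 that dynein shares with other complexes, was lower in spinal cord, by log2 values of -0.53 in control and -0.43 in SMA. Kif2a, which shortens microtubules, was higher, by 0.27 and 0.24. Hap1 was higher in SMA alone, by 0.30, beside 0.03 in control, and Dynlt1c lower in SMA alone, by -0.36 beside -0.16 in control. The interactions of Hap1 and Dynlt1c had an adjusted p of 1.

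The mitotic kinesins Kif11, which pushes spindle poles apart, and Kif20a, which acts in cytokinesis, were lower in spinal cord than in brain. Kif20a passed in both genotypes, at -1.83 in control and -2.41 in SMA, and Kif11 in SMA at -2.32, beside -1.31 in control (edgeR adjusted p = 0.0775). Without control spinal cord library 1 the control values were -2.61 for Kif20a and -2.39 for Kif11, and both passed (edgeR adjusted p = 6.4e-05 and 2.8e-05). Control spinal cord library 1 stood apart here too. Kif11 was at 34.6 CPM in it, at 7.97 and 8.15 CPM in the other control spinal cord libraries and at 5.44 to 10.1 CPM in SMA. Kif20a was at 62.4 CPM in it and at 13.98 to 26.4 CPM in the other 5. Log2 fold changes in SMA against control spinal cord, which did not pass, were -1.19 for Kif11 and -0.85 for Kif20a with that library, and -0.11 and -0.07 without it. Nde1 was at 35.5 CPM in control spinal cord library 1 and at 37.7 and 27.2 CPM in libraries 2 and 3. Its log2 fold change in SMA against control spinal cord was -0.59 with library 1 and -0.54 without it. The part of that library in the Nde1 result was not tested further.

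Across the 12 libraries, log2 levels most like those of Nde1 among 1926 named genes were those of Phf21b and Cdkn1b, each with a Pearson r of 0.98. Cdkn1b, which encodes the cell cycle inhibitor p27, was at mean levels of 152 and 149 CPM in control and SMA brain and of 74.0 and 65.8 CPM in control and SMA spinal cord. Kif5a was most like Ngfr, a neurotrophin receptor, and Rab3b, a small GTPase of vesicles, each with an r of 0.97. Nell2 and Prkaca were most like Kif1a, with r of 0.93 and 0.92. These correlations are descriptions over libraries that fall into both tissues, and any gene with a tissue difference of the same direction scores highly.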

How the data were processed

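Ribosome footprints were analysed in 12 libraries, 3 each of control brain, SMA brain, control spinal cord and SMA spinal cord. The authors deposited raw footprint counts for each gene and library, not normalized, with a gene length that is the union of its exons. Per the labels and methods, reads were trimmed with cutadapt 4.1, reads of rRNA and tRNA were removed, and the rest were aligned with STAR 2.5.3a to GRCm38.p6, keeping up to 5 alignments per read. Genes with low FPKM were removed before deposit. The counting tool is not given in the sources used here. No column of another series was present.

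Counts were normalized by TMM and tested with the quasi-likelihood test of edgeR 4.0.16 (R 4.3.3) on all 10481 genes, 6 libraries at a time, with Benjamini-Hochberg adjustment. DESeq2 1.42.0 was an alternative. The interaction used all 12 libraries. Pathway thresholds are those of the study's methods. Intervals are at 95%. Shares were compared with 2-sided exact permutation tests. CPM and CPM per kb used TMM factors over all 12 libraries. The procedures were tested on simulated data with 200 changed genes.

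The 10 genes, the wider lists and the markers were chosen with earlier results of these data known, among them the lower Nde1 in SMA spinal cord. All 10 genes were to be named, with list genes past the pathway thresholds; list genes called between tissues were named after their values were seen. Symbols came from the study's gene table as held here, in order of identifier and cut short, and from the gene list itself, so 2002 genes had a name and other list genes were not analysed here. 1 marker is not reported here. No marker of red blood cells, endothelium or Schwann cells could be followed. Col1a1, a connective tissue marker, was at 2.46 to 9.19 CPM in brain and 8.18 to 53.4 CPM in spinal cord.

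Whether libraries of one number pair was checked by the correlation of their deviations from the group means. It was 0.35, 0.11 and 0.15 for brain and spinal cord of SMA, where every value exceeded 0.1. Differently numbered SMA libraries of the tissues reached 0.20 and 0.14. Control and SMA spinal cord libraries numbered 2, from different embryos, reached 0.70. The check therefore cannot show which libraries share an embryo, and the fit with numbers as pairs is an alternative only. The values reported come from the fit without pairs, as in the other comparisons, and the paired value is given where it changed a call. In the other comparisons at least 1 value was under 0.1. No pair of libraries within a group agreed within sampling noise. Intervals are for the log2 fold change between groups and are set by the spread between libraries. Libraries with higher totals give more precise values. In spinal cord every control library had a higher total than every SMA library, so depth and genotype cannot be told apart there. Promoter windows came from RefSeq, where 8 of the 10 genes had an entry.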

Additional observations from a re-analysis of the deposited data

Results flagged for a closer look

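For Nde1, whose lower level in SMA spinal cord was already known, the SMA effects in the tissues were compared directly. The SMA effect in spinal cord minus that in brain was -0.65 on the log2 scale (SE 0.22) by the interaction term over all 12 libraries. Its unadjusted p of 0.0126 in edgeR did not pass correction over all genes (adjusted p = 1). The value kept its sign in all 19 other settings run, between -0.78 and -0.53, with adjusted p of 0.865 to 1. Dixon's test for outlying values was not applied to groups of 3 libraries.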

How the results depend on the processing

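The count of transport genes past the pathway thresholds was 0 in brain and 1 (Nde1) in spinal cord under every setting run, among them DESeq2, other normalizations, the replicate block, each library left out and a log2 fold change of 0.5. The count with a tissue by genotype interaction was 0 throughout. With the replicate block the counts were 0 in brain, 1 in spinal cord, 3 between tissues in control and 2 in SMA. The block added Kif5c in control at -0.23 and took away Kif1a in SMA at 0.24. With a tissue difference in control, 4 genes passed after removal of the trend on counts per base. Library size alone, upper-quartile factors, edgeR's expression filter, the replicate block and all 12 libraries in 1 fit each gave 3. With each library left out, 1 to 2 passed (1 without control brain library 2). Signs turned for values near 0. Without that trend, SMA against control in spinal cord was -0.056 for Kif5c and -0.041 for Kif1a, and spinal cord against brain was 0.095 and 0.064 for Dctn1 in control and SMA and -0.020 for Dync1h1 in SMA. Upper-quartile factors gave -0.068 for Dync1h1 in SMA. Without both spinal cord libraries numbered 1, a setting added after seeing the data, Kif5b was at 0.0014 in SMA against control. With each library left out, SMA against control in brain was -0.097 to 0.0025 for Dync1h1, -0.036 to 0.20 for Nde1 and -0.11 to 0.0070 for Kif5b. In spinal cord it was -0.15 to 0.025 for Dctn1, -0.15 to 0.0048 for Kif5a, -0.17 to 0.018 for Kif5b and -0.035 to 0.11 for Kif5c. Between tissues it was -0.16 to 0.022 for Kif5b in control, and -0.099 to 0.12 for Dync1h1 and -0.14 to 0.035 for Kif5b in SMA. The SMA difference in the Kif5a share was -0.83 to 0.0202 points in brain and -1.21 to 0.15 in spinal cord. The cause of these turns was not tested. Ndel1 passed between tissues in 3 of 14 settings in control and 1 in SMA, and Kif5c in 2 and 3. Over all genes, 394 passed the pathway thresholds in brain, beside 220 in DESeq2 and 160 at 0.5. In spinal cord 439 passed, beside 744 with the replicate block, 103 at 0.5, 231 when control library 1 was left out, 980 and 280 when SMA library 1 or 2 was, and 745 when both libraries numbered 1 were. Between tissues in control 4029 passed, beside 2550 and 2596 without control brain library 2 or 3. Levels and shares by coding length were not run, as no table of coding lengths was held here. With 3 libraries a group, an interval that includes 0 does not exclude a difference of a size within it. Nde1 in spinal cord, with 124 to 468 counts, had the least depth.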
